A study of Homo sapiens with 6 samples.

Results

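The BCL2 family decides whether the outer mitochondrial membrane stays closed or is opened to release cytochrome c. Its pro-survival proteins, here BCL2, BCL2L1 (BCL-XL), MCL1 and BCL2A1 (A1/BFL-1), bind and restrain the pro-death proteins. Of the pro-death proteins, BAK1 forms pores in the membrane, and BCL2L11 (BIM), BID, BAD, BIK and BMF are BH3-only proteins, which occupy the groove of the pro-survival proteins or activate the pore formers. Blood cells, eosinophils included, depend on survival signals that keep this balance, and MCL1 and BCL2 are known as survival proteins of myeloid leukaemia cells.

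The 10 genes, 4 pro-survival and 6 pro-death, were taken by symbol from 35052 genes measured in 6 RNA-seq libraries, by a rule that used no measured value. The libraries came from EoL-1, a cell line established from an eosinophilic leukaemia that carries the FIP1L1-PDGFRA fusion kinase, in standard culture with no added agent named in the labels. In 3 ATF3 knockout libraries the stress-induced transcription factor ATF3 had been targeted with CRISPR/Cas9, and 3 libraries were wild type. The labels call the edited cells a knockout and the design text a knockdown, and neither tells separate cultures from repeats of 1 culture, or names clones. The p-values therefore cover the spread among these libraries, which may be technical. All 10 members passed the filter on low counts, as did 13131 genes in all. BCL2A1 passed through its wild-type libraries alone, with 0 knockout libraries over the minimum of 0.356 CPM, so that its test was possible only because it was higher there.

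ATF3 held 5.62, 8.33 and 4.52 CPM (reads scaled to library size with TMM factors) in knockout replicates 1, 2 and 3, against 22.9, 16.2 and 23.0 CPM in wild type, without overlap (log2 fold change -1.75, SE 0.25, edgeR adjusted p = 0.0098). Its mRNA was lower in knockout but still measured there. Depth was alike, at 26766103 to 30117281 estimated reads per library. Wild-type replicate 2 lay nearest to the knockout libraries on the first principal component of all tested genes, at -13.5, against 20.97 to 35.5 for the knockout libraries and -37.9 and -34.9 for wild-type replicates 1 and 3. Of the genes tested, 21.1% passed an adjusted p of 0.05 by the edgeR quasi-likelihood test, 11.4% higher and 9.72% lower in knockout. In 43.5% the 3 knockout and 3 wild-type values did not overlap, 22.2% higher and 21.4% lower. Without wild-type replicate 1 no gene passed (smallest adjusted p 0.0503, with 3496 genes at an unadjusted p under 0.05), so each call below ended without that library.

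Of the 10 members, 2 pro-death genes, BAK1 and BIK, rose in knockout, and 1 pro-survival gene, BCL2A1, fell. These 3 calls of 10 stand beside 21.1% of all genes tested, so the share is not a result about the family. The call of BCL2A1 is of a gene that passed the filter through wild type alone. The other 7 did not pass, and their fitted changes lay between -0.33 (BCL2L11) and 0.16 (BMF) on the log2 scale. Groups did not overlap for 6 members, higher for MCL1, BAK1, BAD and BIK and lower for BCL2A1 and BCL2L11, beside 43.5% of all genes. The median log2 fold change was -0.02 over the 4 pro-survival and 0.15 over the 6 pro-death members, beside 0.01 over all genes tested. The pro-survival median includes BCL2A1, which entered through wild type alone, so it is not set against the pro-death median. The changes of BCL2, BCL2L1 and MCL1 were -0.15, 0.12 and 0.16. In bulk RNA, fewer cells of a type and less RNA per cell cannot be told apart.

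**Figure D1:**
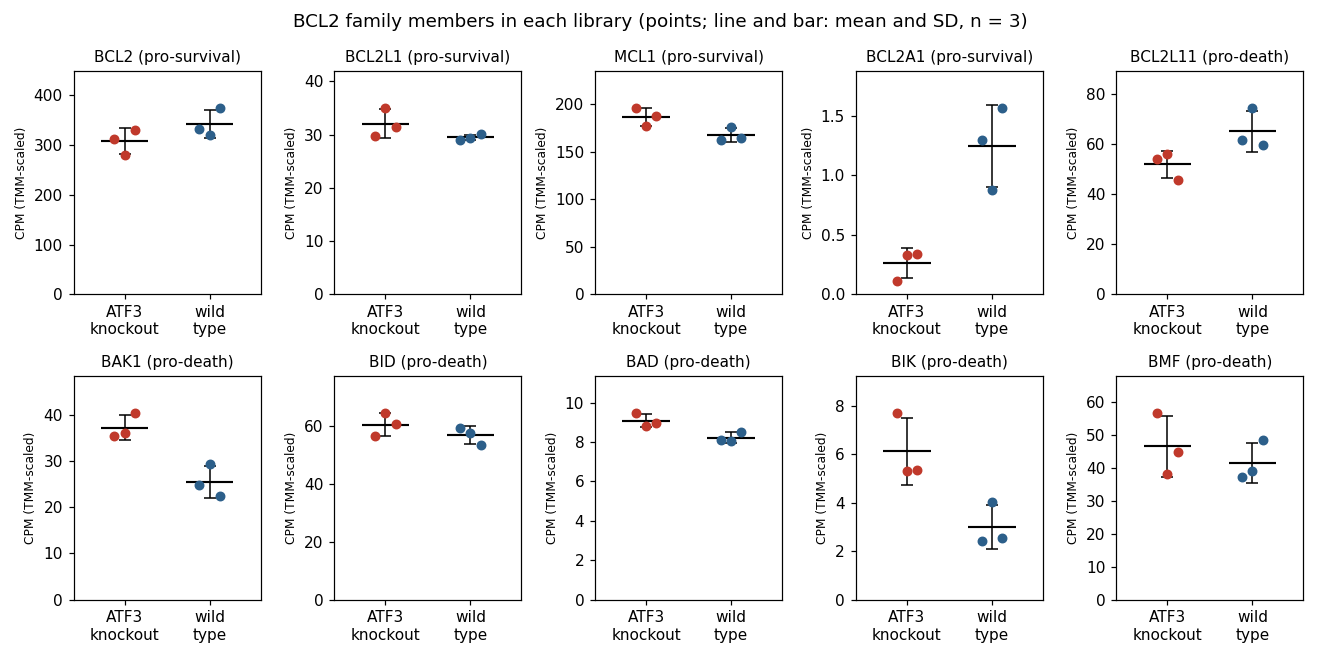
CPM (TMM-scaled, linear axes from 0) of each member in the 3 ATF3 knockout (red, left) and 3 wild-type libraries (blue, right), with the mean (line) and SD (bar, n = 3). The knockout points of BAK1 and BIK all lie above, and those of BCL2A1 all below, the wild-type points, while BCL2, BCL2L1, BID and BMF overlap.

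BCL2A1, a pro-survival gene that NF-kB signalling is known to induce in blood cells, showed the largest fitted change of the members, at the lowest level. BCL2A1 (ENSG00000140379.7, chromosome 15, 79960889 to 79971446, minus strand of GRCh38) held 3, 9 and 10 estimated reads in knockout replicates 1, 2 and 3, against 36, 25 and 43 in wild type. Scaled, these were 0.115, 0.327 and 0.343 CPM in knockout and 1.30, 0.878 and 1.57 CPM in wild type, and no knockout library reached the lowest wild-type library. The level was 4.66-fold lower in knockout, a log2 fold change of -2.22 (SE 0.44, 95% interval -3.25 to -1.19, edgeR adjusted p = 0.0178). With 0 knockout libraries over 0.356 CPM, BCL2A1 entered the test only through wild type, where it was higher. Its p-values are therefore given as a description and not as support. For BCL2A1, BAK1 and BIK alike, exact permutation of the group labels (two-sided) gave p = 0.1, the smallest that 3 against 3 allows. The call ended without wild-type replicate 1 (-2.19, adjusted p = 0.0756) or 3 (-2.03, adjusted p = 0.0718), and without wild-type replicate 2 the change was -2.42 (adjusted p = 0.023).

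The 3 other pro-survival genes were abundant and close between the groups. BCL2, the founding member, located on chromosome 18 (63123346 to 63320128), held 313, 280 and 331 CPM in knockout and 332, 321 and 375 CPM in wild type. The groups overlapped, and the log2 fold change of -0.15 had a 95% interval of -0.36 to 0.06 (adjusted p = 0.255). MCL1, a short-lived protein whose level follows its synthesis closely (chromosome 1, 150574551 to 150579738), held 196, 177 and 187 CPM in knockout and 163, 175 and 164 CPM in wild type. Every knockout library lay above every wild-type library, but the change was small, at 0.16 (SE 0.06), and did not pass (adjusted p = 0.124). BCL2L1, which encodes BCL-XL and, by splicing, the pro-death BCL-XS (chromosome 20, 31664452 to 31723989), held 29.8, 35.0 and 31.4 CPM in knockout and 29.01, 29.3 and 30.1 CPM in wild type. Its groups overlapped (0.12, 95% interval -0.07 to 0.31, adjusted p = 0.311). BCL2L1 shares 1424 of its 3314 exon bases with the antisense gene ABALON on the opposite strand, which was not measured here.

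BAK1, the pore-forming member, rose in knockout. BAK1 (ENSG00000030110.12, chromosome 6, 33572547 to 33580293, minus strand) held 35.3, 36.0 and 40.3 CPM in knockout, against 24.8, 29.3 and 22.4 CPM in wild type. The groups did not overlap, and wild-type replicate 2 lay nearest to the knockout values. The means were 37.2 ± 2.72 CPM in knockout and 25.5 ± 3.49 CPM in wild type (SD, n = 3 each), a 1.46-fold higher level (log2 fold change 0.54, SE 0.11, edgeR adjusted p = 0.0207). It did not pass without wild-type replicate 1 (0.52, adjusted p = 0.0934) or 3 (0.46, adjusted p = 0.075), and without wild-type replicate 2 it was 0.65 (adjusted p = 0.0155). The pseudogene BAK1P1 held 23 reads in all 6 libraries together, against 5223 of BAK1.

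BIK, a BH3-only protein of the endoplasmic reticulum, also rose, at a lower level than BAK1. BIK (ENSG00000100290.2, chromosome 22, 43110748 to 43129712, plus strand) held 7.69, 5.31 and 5.35 CPM in knockout, against 2.41, 4.04 and 2.55 CPM in wild type, without overlap. The log2 fold change was 1.02 (SE 0.27, edgeR adjusted p = 0.0382, 95% interval 0.39 to 1.66), a 2.03-fold higher level. Of the 3 called members its call was lost most often: it passed without wild-type replicate 2 (1.30, adjusted p = 0.0231) and in no fit that left out another library, nor with effective length as an offset (1.03, adjusted p = 0.0608). Without knockout replicates 1, 2 and 3 the adjusted p-values were 0.108, 0.0629 and 0.0504, and without wild-type replicates 1 and 3 they were 0.137 and 0.131.

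BCL2L11 encodes BIM, a BH3-only protein that binds the whole set of pro-survival proteins. BCL2L11 (ENSG00000153094.22, chromosome 2, 111119378 to 111168447, plus strand) held 53.9, 56.2 and 45.6 CPM in knockout, against 61.5, 74.4 and 59.5 CPM in wild type. Every knockout library lay below every wild-type library, yet the log2 fold change of -0.33 (SE 0.12) did not pass (edgeR adjusted p = 0.0882, 95% interval -0.60 to -0.05). It did pass with DESeq2 (-0.34, adjusted p = 0.0421) and with effective length as an offset (-0.45, adjusted p = 0.0385). It did not pass with RLE factors, with limma-voom or in any fit that left out 1 library (edgeR adjusted p 0.104 to 0.188). BCL2L11 shares 727 exon bases with the non-coding gene MIR4435-2HG on the opposite strand, which was not measured here.

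The remaining BH3-only genes did not pass. BID, which caspase 8 cleaves to link death receptors to mitochondria, held 56.5, 64.4 and 60.6 CPM in knockout and 59.5, 57.6 and 53.4 CPM in wild type, with overlap (log2 fold change 0.09, 95% interval -0.09 to 0.27). BMF, a BH3-only protein that binds a dynein light chain, varied most within groups of these 3, with 56.6, 38.2 and 44.9 CPM in knockout and 37.2, 39.0 and 48.5 CPM in wild type. Its change of 0.16 had an interval of -0.23 to 0.55. BAD, which phosphorylation by survival kinases holds inactive, held 9.46, 8.84 and 8.95 CPM in knockout and 8.11, 8.05 and 8.53 CPM in wild type. Those groups did not overlap, but the change of 0.14 (interval -0.12 to 0.41) did not pass (adjusted p = 0.398). BAD shares 404 exon bases with GPR137 on the opposite strand, which held 1368 reads over the 6 libraries against 1438 of BAD, and use of the strand in the authors' quantification is not stated in the sources used here.

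**Figure D2:**
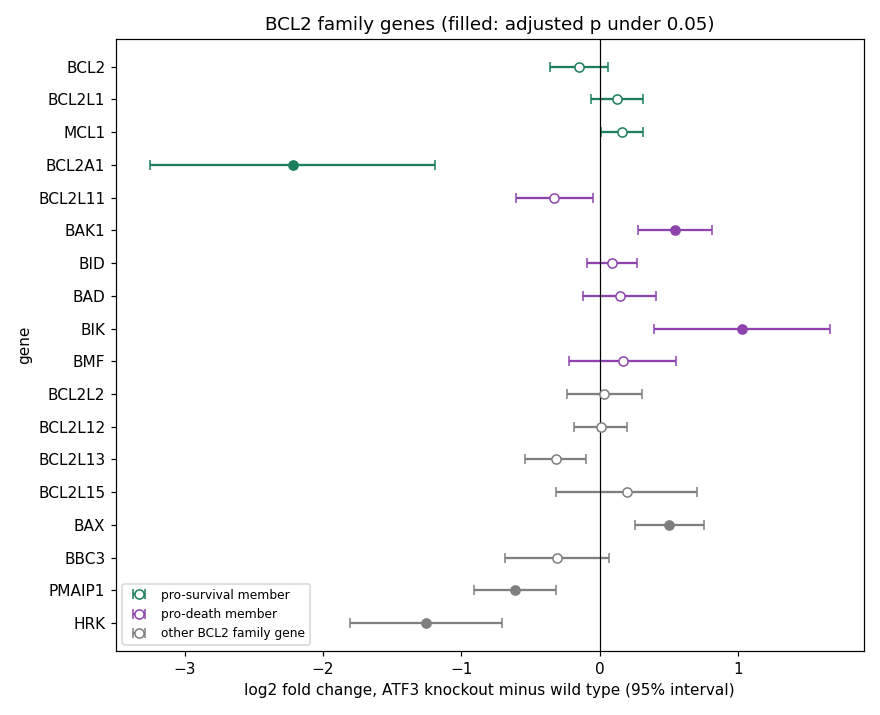
Log2 fold change, ATF3 knockout minus wild type, with 95% intervals from the edgeR fit, of the 4 pro-survival members (green), the 6 pro-death members (purple) and 8 other tested BCL2 family genes (grey). Filled points have an adjusted p under 0.05; the 6 filled genes are BCL2A1, BAK1, BIK, BAX, PMAIP1 and HRK, and every other interval is drawn with an open point.

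On the TPM scale, which corrects for depth and transcript length and so allows levels of different genes to be compared, BID, BCL2 and MCL1 had the highest means of the 10 members in both groups. In knockout BID averaged 55.1 ± 5.80 TPM, MCL1 49.7 ± 2.41, BCL2 41.1 ± 2.57, BAK1 16.9 ± 0.752, BCL2L1 16.6 ± 2.18 and BAD 14.8 ± 5.05 (SD, n = 3). Below them in knockout came BMF with 14.2 ± 2.17 TPM, BCL2L11 with 10.2 ± 1.04, BIK with 7.72 ± 1.77 and BCL2A1 with 0.436 ± 0.210. In wild type the means were 51.1 ± 3.99 TPM for BID, 44.3 ± 4.68 for BCL2, 42.3 ± 2.67 for MCL1, 14.98 ± 0.322 for BCL2L1 and 14.5 ± 3.48 for BAD. Below them in wild type came BCL2L11 with 13.3 ± 1.12 TPM, BMF with 12.9 ± 0.964, BAK1 with 11.1 ± 1.56, BIK with 3.63 ± 1.09 and BCL2A1 with 1.99 ± 0.548. BAK1 thus stood at rank 4 of the 10 in knockout and rank 8 in wild type. Many neighbours in these orders overlapped between libraries of a group: in knockout BID with MCL1, each neighbour from BAK1 down to BMF, and BCL2L11 with BIK. In wild type BID overlapped with BCL2, BCL2 with MCL1, and each neighbour from BCL2L1 down to BAK1. BCL2A1 lay below every other member in every library.

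Summed by class, the pro-survival members held 110, 108 and 106 TPM in knockout and 101, 103 and 107 TPM in wild type. The pro-death members held 124, 124 and 109 TPM in knockout and 105, 110 and 104 TPM in wild type. Both sums overlapped between the groups. So did the ratio of pro-survival to pro-death TPM, at 0.89, 0.87 and 0.97 in knockout and 0.964, 0.93 and 1.02 in wild type. The pro-death sum and the ratio leave out BAX, a pore former like BAK1 that is not among the members. BAX held 375, 418 and 352 TPM in knockout and 226, 327 and 238 TPM in wild type, without overlap. In every library BAX held more than the pro-death sum. The ratio therefore describes the members only, and not the balance of the whole family. MCL1 made up 46.1 ± 1.22% of the pro-survival TPM in knockout and 40.9 ± 3.41% in wild type (SD, n = 3 each). BCL2 made up 38.1 ± 2.74% in knockout and 42.7 ± 3.40% in wild type. With MCL1 left out, the pro-survival sum was 58.5, 57.7 and 58.4 TPM in knockout and 59.2, 57.5 and 67.1 TPM in wild type, with overlap. The means were 58.2 ± 0.404 TPM in knockout and 61.2 ± 5.11 TPM in wild type. The small difference of the means thus turned its direction, with wild-type replicate 3 well above the other libraries. These sums add mRNA of proteins that differ in stability and binding, and are given as a description with no test.

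**Figure D3:**
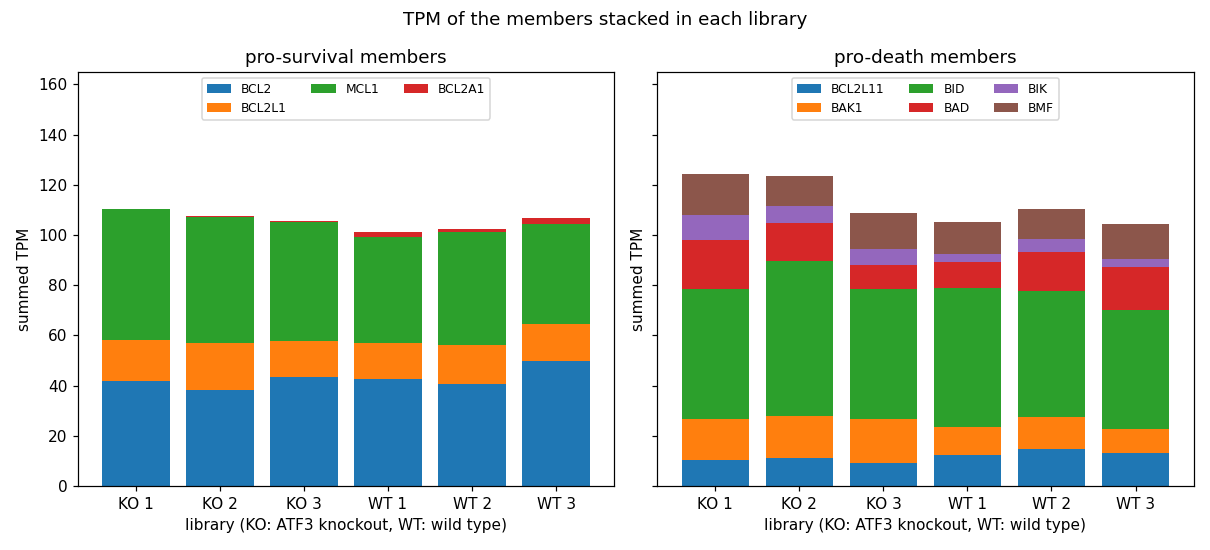
TPM of the pro-survival (left panel) and pro-death members (right panel), stacked, in each ATF3 knockout (KO) and wild-type (WT) library. BAX is not among the members and is not included. BCL2A1 forms a thin band at the top of the left bars in wild type, and the summed heights of knockout (106 to 110 and 109 to 124 TPM) and wild type (101 to 107 and 104 to 110 TPM) overlap.

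Transcript estimates gave no call: of 50394 transcripts tested with edgeR, 0 (0%) had an adjusted p under 0.05, 7899 had an unadjusted p under 0.05, and the smallest adjusted p was 0.0562. BIK has 1 transcript in the files, and BCL2A1-201 held all but 1.96 of the BCL2A1 reads. For BAK1, the reads divided between 2 protein-coding transcripts that span nearly the same bases. BAK1-202 held 474, 439 and 426 reads in knockout and 218, 308 and 228 in wild type, without overlap (log2 fold change 0.86, SE 0.17, edgeR adjusted p = 0.097), while BAK1-203 held 444, 550 and 751 reads in knockout and 470, 526 and 387 in wild type, with overlap (0.35, adjusted p = 0.461). The leading transcript of MCL1, MCL1-202, held 4487, 4206 and 4840 reads in knockout and 3877, 4419 and 3976 in wild type.

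Division between similar transcripts was unstable for several members. BID-215 held 0, 897 and 821 reads in knockout and 830, 826 and 668 in wild type, while BID-205, which is 2167 bases long against 2199 of BID-215, held 728 reads in knockout replicate 1 and 0 in the other libraries. BMF-201 held 1158, 511 and 353 reads in knockout and 220, 404 and 899 in wild type, and BMF-202 held 260, 489 and 885 in knockout and 754, 648 and 376 in wild type, so that within each group the order of the libraries ran opposite in the pair. BAD-205, of 325 bases, held 23.6, 14.4 and 0 reads in knockout and 5.09, 16.1 and 18.6 in wild type. The TPM of BAD followed the same order, with 19.7, 15.0 and 9.59 in knockout and 10.7, 15.7 and 17.3 in wild type, although its CPM differed little between libraries. Of BCL2L11, BCL2L11-206 held 955, 889 and 750 reads in knockout and 810, 1198 and 906 in wild type, and BCL2L11-201 held 0, 0 and 35.1 in knockout and 81.5, 53.8 and 121 in wild type (adjusted p = 0.507).

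Promoter windows of RefSeq (GRCh38.p14, 250 bases before to 50 after a start) were found for 8 of the 10 members, 15 windows in all since BID has 5 and BAD, BMF and BCL2L1 have 2 each, and MCL1 and BIK are named only. Because ATF3 binds DNA as a bZIP factor, the windows were searched on both strands for the full ATF/CREB site TGACGTCA, its core TGACG (which the full site contains), the C/EBP-ATF composite site TGATGNAA and the AP-1 site TGANTCA. The forkhead site GTAAACA was added because FOXO factors are known to act on BCL2L11. Matches were found in 6 members, shown with 30 bases each, on the strand of the gene and with the match in capitals.
BCL2A1, composite site: atattataaagTGATGCAAacagaaattcc
BCL2, core on the opposite strand: cctgccggcggcCGTCAgcgctcggagcgg
BCL2L1, core: ctatatataaacTGACGgacggatgaaata
BAD, core: gacctacccgagTGACGttccgagaggtga
BMF, core: cagtcctcggcgTGACGcgcaggggggcgg
BCL2L11, forkhead site: gagttactccgGTAAACAcgccagggacgg

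The stretch of BCL2A1 lies at chr15:79971241-79971270 on the minus strand. Its match begins 63 bases before the RefSeq start, inside an exon of the GENCODE transcript BCL2A1-201, which starts farther upstream. The composite site was found in 3.62% of 35116 promoter windows of all genes, and in 1 of the 15 windows of the members. The core was found in 24.6% of all windows and in 5 of the members' 15, which belong to 4 genes, BCL2 (chr18:63319977-63320006), BCL2L1 (chr20:31724147-31724176), BAD (chr11:64284741-64284770) and BMF (chr15:40108919-40108948), all on genes of the minus strand. The windows of BAD overlap and hold the same site, which is counted in each. The BCL2 match lies inside an exon of the transcript BCL2-202. None of those 4 genes passed the test. The forkhead site was found in 3.42% of windows and in BCL2L11 (chr2:111120680-111120709, plus strand). The full ATF/CREB site (1.85% of windows) and the AP-1 site (7.71%) were in none of the 8 members, and the BAK1 and BID windows held none of the 5 motifs. These are matches of letters in short windows, and no binding was measured.

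Among 8786 other protein-coding genes with a mean of at least 10 CPM, the patterns most like BCL2A1 over the 6 libraries were those of P2RX7, TEX15, ATF3, MICAL2 and JAG1. Likeness was the root-mean-square difference of log2 CPM centred on each gene's mean, and was 0.31, 0.42, 0.45, 0.49 and 0.50 in that order. For BAK1 the nearest of 8785 genes were RNASEK, ORMDL3, CSRNP2, MTFR1 and ABCC5, at 0.046 to 0.060. BCL2A1 was taken because it was called, at a lower level in knockout, so genes of like pattern are lower there too, the targeted gene ATF3 included. Its pattern rests on 3 to 10 reads per knockout library, and it entered the test through wild type alone. A link between BCL2A1 and ATF3 was not tested here. The 6 libraries are the same for every gene, and these values are a description.

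The rest of the BCL2 family, a list of 11 genes of which 8 were tested, held 1 gene that rose and 2 that fell, beside 11.4% and 9.72% of all genes tested, with a median log2 fold change of -0.15 beside 0.01 over all genes. BAX, the second pore former beside BAK1, rose to 212, 224 and 199 CPM in knockout, against 134, 173 and 141 CPM in wild type (0.50, SE 0.11, edgeR adjusted p = 0.0209). The BH3-only genes PMAIP1 (NOXA), known to bind MCL1, and HRK fell. PMAIP1 held 39.2, 30.5 and 29.2 CPM in knockout and 53.1, 46.2 and 52.0 CPM in wild type (-0.61, SE 0.13, adjusted p = 0.0197), and HRK averaged 1.03 CPM in knockout and 2.48 CPM in wild type (-1.26, SE 0.23, adjusted p = 0.0152). BBC3 (PUMA), like BAX and PMAIP1 a known p53 target, averaged 46.8 ± 1.56 CPM in knockout and 57.98 ± 12.8 CPM in wild type and did not pass (-0.31, adjusted p = 0.205). BAX did not pass with effective length as an offset (0.48, adjusted p = 0.0764), with limma on TPM (0.55, adjusted p = 0.0585), nor without knockout replicate 1 or 2 or wild-type replicate 1 or 3 (lowest change 0.43, highest adjusted p 0.0887).

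Downstream of the membrane, of 13 tested genes of mitochondrial release and caspases 5 rose and 2 fell, beside 11.4% and 9.72% of all genes tested. Their median log2 fold change was 0.31, beside 0.01 over all genes. APAF1, the scaffold on which cytochrome c activates caspase 9, rose to 301, 289 and 268 CPM in knockout, against 127, 173 and 118 CPM in wild type (1.04, SE 0.15, edgeR adjusted p = 0.00957), and lost its call only without wild-type replicate 1 among the alternatives run (0.98, adjusted p = 0.0527). HTRA2, a mitochondrial protease that opposes inhibitors of apoptosis, rose by 0.53 (SE 0.11), and shares 483 exon bases with AUP1 on the opposite strand. CASP10, an initiator caspase of death receptors, rose by 0.51 (SE 0.10) but not with the length offset (0.38, adjusted p = 0.331). Of 5 tested inhibitors of apoptosis 0 were called with edgeR, beside 21.1% of all genes, and 1 lay without overlap between groups, beside 43.5%. At an unadjusted edgeR p under 0.05 there were 2, while DESeq2 called 2 and limma-voom 0. Those with edgeR were NAIP (log2 fold change 1.05, adjusted p = 0.0729) and XIAP (-0.24, adjusted p = 0.0668). The most abundant, BIRC6, averaged 243 ± 46.1 CPM in knockout and 242 ± 9.80 CPM in wild type. Of 8 death receptors and adaptors 3 rose, beside 11.4% of all genes tested. The changes were a rise of the caspase 8 inhibitor gene CFLAR by 0.68 (SE 0.11), of the death receptor gene FAS by 1.05 (SE 0.28) and of the TNF receptor gene TNFRSF1A by 0.35 (SE 0.10). FAS shares 380 exon bases with ACTA2 on the opposite strand. Its change was 0.69 without knockout replicate 2 (adjusted p = 0.0536), and it did not pass with limma-voom (adjusted p = 0.0523) or without knockout replicate 1 or any of the wild-type replicates. TNFRSF1A, at an adjusted p of 0.0496, did not pass with RLE factors (0.0512), upper-quartile factors (0.0522) or no filter (0.0552).

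Of 12 tested partners and modifiers of BCL2 family proteins 3 rose and 1 fell, beside 11.4% and 9.72% of all genes tested, with a median of 0.07. VDAC2, the channel known to hold BAK1 in the outer membrane, fell to 177, 171 and 192 CPM in knockout, against 229, 212 and 233 CPM in wild type (-0.32, SE 0.07, edgeR adjusted p = 0.0233). DYNLL1, the dynein light chain known to bind BIM, rose by 0.28 (SE 0.06) and the survival kinase gene PIM2 by 0.34 (SE 0.08). HUWE1 and USP9X, which remove and spare MCL1 protein, did not pass, with log2 fold changes of 0.02 and 0.03. BBC3, NAIP, XIAP, HUWE1 and USP9X were named after their values were seen. Of 10 transcription factors known to act on BCL2 family genes, 3 rose and 1 fell, beside the same shares of all genes. DDIT3 (CHOP), known to induce BCL2L11, fell by 1.51 (SE 0.26) and shares 355 exon bases with the far more abundant MARS1 on the opposite strand. STAT3 rose by 0.35 (SE 0.07) and SPI1 by 0.29 (SE 0.07). Of the 21 called genes of these lists, leaving out a wild-type library ended 21 calls (replicate 1), 8 (replicate 2) and 19 (replicate 3), and leaving out a knockout library ended 14, 13 and 4 in the same order. The length offset ended 15, limma on TPM 13, and none turned its sign.

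**Figure D4:**
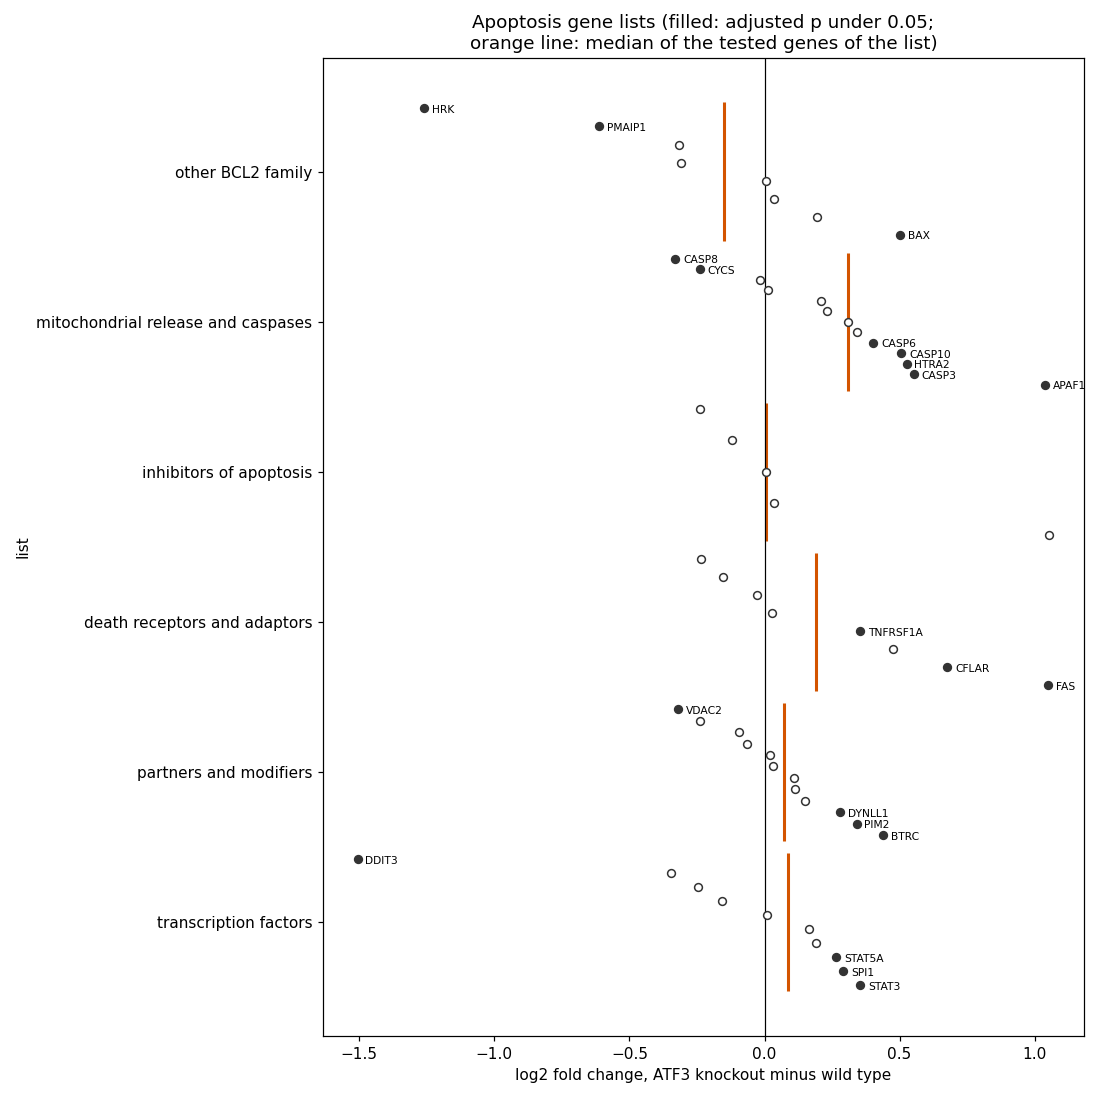
Log2 fold change, ATF3 knockout minus wild type, of each tested gene of 6 lists around the BCL2 family, with the median of each list as an orange line. Filled and labelled genes have an adjusted p under 0.05; the list of mitochondrial release and caspases has its median at 0.31, and DDIT3 and HRK lie farthest to the left.

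Summed TPM of several lists of blood cell markers differed between the groups. The counts of called genes stand beside 11.4% higher and 9.72% lower of all genes tested, and few genes per list were tested. The summed TPM of 10 eosinophil markers was 219 to 353 in knockout and 66.4 to 93.3 in wild type, with 3 of 3 tested genes higher, while the defining genes CLC, PRG3 and IL5RA had no reads in any library and EPX had 2 in all. RNASE2, at 248 TPM in knockout and 65.4 TPM in wild type on average, and RNASE3, at 51.2 and 15.7 TPM, made up nearly all of it. ADGRE1 averaged 0.622 and 0.208 TPM, and PRG2, SIGLEC8 and CCR3 had too few reads to be tested. The summed TPM of 7 neutrophil and granule markers was 518 to 1506 in knockout and 50.3 to 264 in wild type (MPO and S100A8 higher of 4 tested), with ELANE, PRTN3 and AZU1 at 0. S100A8 and S100A9 made up most of that sum in each knockout library. In wild-type replicate 3, the lowest, they held 9.09 and 6.35 TPM, less than CTSG with 21.1 and MPO with 13.7 TPM. S100A9 did not pass (edgeR adjusted p = 0.0674), and CTSG lay the other way, at 6.28 TPM in knockout and 13.9 TPM in wild type on average (adjusted p = 0.0679). For 5 monocyte and macrophage markers it was 284 to 571 in knockout and 57.2 to 203 in wild type (2 of 3 higher). LYZ made up most of that sum, at 405 TPM in knockout and 86.2 TPM in wild type on average. CD163 did not pass (edgeR adjusted p = 0.269). For 5 markers of erythroid cells and megakaryocytes it was 0.468 to 1.22 in knockout and 0.395 to 0.622 in wild type, with overlap (ITGA2B, the 1 gene tested, was higher), and with HBB, HBA1 and PF4 at 0. For 5 markers of endothelium and stroma, of which PECAM1 was the tested and higher gene, it was 14.5 to 17.3 in knockout and 7.43 to 8.18 in wild type, with CDH5 and COL3A1 at 0. For 6 lymphocyte markers it was 221 to 273 in knockout and 176 to 217 in wild type (0 of 2 called), with CD3E, CD3D and MS4A1 at 0. NKG7 made up nearly all of that sum, at 243 TPM in knockout and 188 TPM in wild type on average. The part of these differences in the changes of BAK1, BIK and BCL2A1 was not tested.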

How the data were processed

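The 6 libraries were prepared from poly(A)-selected RNA with a stranded kit, per the labels' protocols. Estimated counts and TPM per transcript were deposited by the authors, made with Salmon 1.6.0 after FastQC 0.11.9 on hg38, per the submitters' processing notes; its settings, strand mode and annotation: not given in the sources used here. Of non-zero estimated counts, 93.0% were not whole. Effective lengths were identical in all libraries.

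Transcripts were joined to GENCODE release 29 by Ensembl ID without version, and 167027 of 177456 matched. The other 10429, holding 3.59 to 3.82% of reads, were left out. Estimated counts and TPM were summed per gene, and the counts rounded. Genes were kept with filterByExpr (minimum count 10) and tested with the quasi-likelihood test of edgeR 4.0.16 with TMM factors, knockout minus wild type, all 6 libraries, no covariate, and Benjamini-Hochberg adjustment over 13131 genes at 0.05. CPM are TMM-scaled. Single-gene permutation tests were exact and two-sided on log2(CPM + 0.5), and log2 CPM for likeness used a prior count of 2. The biological coefficient of variation was 16.8%. No 2 libraries agreed within counting noise (chi-square per degree of freedom at least 7.81). The tests were checked on simulated data.

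Alternatives were DESeq2 1.42.0, RLE and upper-quartile factors, no filter, limma-voom (limma 3.58.1), limma on log2(TPM + 0.1), an effective length offset, a replicate block and leaving out each library. All members and ATF3 are named. Of each list of neighbouring genes, up to 3 called genes are named, by smallest p, and the most abundant gene of a list with no call; the nearest 5 genes are given for the called pro-survival and pro-death member with the smallest p. The members and lists were chosen with earlier results of these data known, although the rule that names the members used no measured value.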

Additional observations from a re-analysis of the deposited data

How the results depend on the processing

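All alternatives kept the sign of BCL2A1, BAK1, BIK, BCL2L11 and ATF3. The count of genes higher and lower in knockout (1494 and 1276) was 894 and 475 with limma on TPM, 723 and 661 with the length offset, and 0 to 1370 and 0 to 1388 when 1 library was left out. Leaving out 1 library gave log2 fold changes of -2.47 to -1.88 for BCL2A1, 0.46 to 0.65 for BAK1, 0.83 to 1.30 for BIK and -2.03 to -1.58 for ATF3, whose adjusted p was 0.0527 without wild-type replicate 1. With the length offset BIK did not pass (1.03, adjusted p = 0.0608). BCL2L11 passed with DESeq2 (-0.34) and with the length offset (-0.45). Without MCL1, the log2 ratio of the knockout to the wild-type mean was -0.074 for the pro-survival sum, against 0.06 with it, and -0.23 for the ratio of pro-survival to pro-death TPM, against -0.10 with it. The cause of these changes was not tested. Fits that leave out a library also have fewer samples, and the part of that was not tested either. BAD, BCL2, BCL2L1, BID, BMF and MCL1 stayed without a call in all 14 alternatives, and BMF lay between -0.00022 and 0.29 when 1 library was left out.

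The replicate numbers are shared by both groups but did not pair the samples: deviations of same-numbered libraries correlated at -0.0924, 0.106 and 0.196, and not every library correlated best with its own number. With the replicate block, 1225 genes were higher and 1093 lower, BIK was 1.04 (adjusted p = 0.0658) and BCL2L11 -0.33 (adjusted p = 0.0434), and the calls of BCL2A1, BAK1 and ATF3 did not change.

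Depth limits BCL2A1 most, at 3 to 10 reads per knockout library. A call missed here does not show that a member was equal in both groups.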
